A study of Mus musculus with 42 samples.

Results

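The genes described here carry signals from G-protein-coupled receptors through cyclic nucleotides and diacylglycerol: G protein alpha and gamma subunits, regulators of G protein signalling (RGS), adenylyl cyclases, phosphodiesterases, subunits of protein kinase A (PKA) and isoforms of protein kinase C (PKC). They were chosen by symbol: Adcy, Pde, Rgs or Gng followed by a digit, symbols that begin with Prkaa, Prkac or Prkar, and those of the Gna and Prkc series. The symbol rule uses no measured value, but it was set with earlier results of these data known. The rule found 79 of 12393 genes, read by 147 probe sets; 42 of the genes had more than 1 probe set, and each gene is represented by its brightest probe set. The 79 are 15 G alpha genes, 7 G gamma genes, 17 RGS genes, 7 adenylyl cyclases, 20 genes named as phosphodiesterases, 5 PKA subunits and 8 PKC isoforms. Symbols bring in 4 genes with other products: Gnasas1 is an antisense transcript of Gnas, Pde4dip is the scaffold protein myomegalin, Pde6d is a carrier of prenylated proteins, and Pde12 is a mitochondrial enzyme that acts on RNA.

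The series measured mRNA of hand-picked fluorescent neurons of the adult mouse forebrain on 42 Affymetrix arrays, 3 arrays in each of 14 groups. Each array holds 27 to 120 picked cells, or, for 2 groups, dissociated cells that were not sorted, and the series design states that replicate arrays were made from separate animals, with several animals pooled on some arrays. All sorted mice are labelled male. GIN-Hip (63 to 74 days old) and GIN-Cg (63 to 78 days) are somatostatin-positive interneurons that carry green fluorescent protein (GFP), from hippocampus and cingulate cortex of GIN mice, a line whose labels name Gad1, mixed with C57BL/6j. G42-Cg (65 to 79 days) are parvalbumin-positive GFP interneurons of the cingulate cortex and G42-LGN (60 to 66 days) are GFP interneurons of the lateral geniculate nucleus of the thalamus, both from G42 mice mixed with C57BL/6j. G30-Cg (57 to 68 days) and G30-SS (57 to 69 days) are GFP interneurons of cingulate and somatosensory cortex from G30 mice, pure or mixed with C57BL/6j, and G30-Amy (60 to 79 days) are GFP neurons of the amygdala whose class is not labelled. YFPH-Cg (65 to 80 days, given for 2 of the 3 arrays) and YFPH-SS (65 to 86 days) are layer 5 pyramidal neurons with yellow fluorescent protein (YFP) of the same cortical areas, YFPH-Hip (91 days or older) are hippocampal pyramidal neurons and YFPH-Amy (91 days or older) are amygdala neurons of unlabelled class, all from YFPH mice mixed with C57BL/6j. CT6-Cg (74 to 82 days) are layer 6 pyramidal neurons of the cingulate cortex of C57BL/6j mice, found by fluorescent beads taken up from the medial dorsal thalamus. GIN-Homog-Cg and G42-Homog-Cg are unsorted cells of the cingulate cortex of GIN and G42 mice, with no age or sex in the labels. The promoters that drive the fluorescent proteins of the G42 and G30 lines are not given in the sources used here, and each line labels only some of the cells of a type.

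As background, a receptor loads its G protein alpha subunit with GTP, the alpha subunit parts from the beta-gamma pair, and both act on enzymes and channels until the alpha subunit cleaves its GTP, a step that RGS proteins speed up. Adenylyl cyclases then make cyclic AMP under control of stimulating and inhibiting alpha subunits, phosphodiesterases break down cyclic AMP and cyclic GMP, PKA is the main kinase switched on by cyclic AMP, and PKC answers to the diacylglycerol and calcium that Gq-coupled receptors release. In forebrain neurons these pathways carry much of the action of dopamine, noradrenaline, serotonin, acetylcholine and neuropeptides on excitability and plasticity.

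Values are log2 of the deposited intensity plus 16, so a step of 1 is a doubling except near the bottom of the scale, where fold changes are understated. An error after a level is the SD of 3 arrays and an error after a difference is its SE. Levels of different genes come from different probe sets and are not set against each other. Array medians lay between 285.83 and 330.39 intensity units, and precision is set by the 3 arrays per group. The labelled classes were checked by markers: a list of 4 GABA neuron genes summed to 13.77 to 14.08 on the arrays of the 6 interneuron groups and to 8.70 to 9.64 on those of the 4 pyramidal groups, and a list of 7 pyramidal genes to 10.69 to 12.27 and 13.62 to 14.40. The highest pyramidal sums among interneurons were in G30-SS, at 11.42 to 12.27. The arrays of YFPH-Amy summed to 8.70 to 8.85 for the GABA list and 13.71 to 14.05 for the pyramidal list, and those of G30-Amy to 9.09 to 11.16 and 13.74 to 13.86, so both amygdala groups carried pyramidal markers. Scans fell on 21 days of 3 years: YFPH-Hip and YFPH-Amy were scanned in the first year, YFPH-Cg and YFPH-SS in the first and the next, G30-Amy in the last 2, and the other groups in the middle year. The array records mark YFPH-Hip array 1 and YFPH-Amy array 2 as abnormally amplified.

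Of the 79 genes 67 lay above the 25th percentile of all genes (log2 7.77, an intensity of 202.9) and were tested, beside 9295 genes in all. A group of a tested gene can still lie below that threshold, where a low level is poorly measured; differences that this moves by over 1.5 times are also given with every value below the threshold raised to it, called floored here. Low signal kept out Gna15, Gnaq, Gnat1, Prkar2a, Prkch, Rgs18, Rgs20, Pde12, Pde1c, Pde3a, Pde6a and Pde6b. A moderated F test over the 12 sorted groups found 57 of the 67 to differ (85.1%), where 79.8% of all genes tested did. The spread of the levels gave more contrast than that count: the highest and the lowest sorted group differed by a median of 0.91 over the 67 and of 0.68 over all genes, and 13 of the 67 (19.4%) spanned over 4-fold, against 6.35% of all genes. By family the median range was 1.79 for 7 G gamma genes, 1.52 for 15 RGS genes, 0.90 for 12 G alpha genes, 0.83 for 4 PKA subunits, 0.68 for 15 phosphodiesterases, 0.59 for 7 PKC isoforms and 0.54 for 7 adenylyl cyclases. The 10 that did not pass the F test were Adcy4, Adcy6, Adcy7, Gna13, Pde8a, Pde4dip, Pde7a, Rgs11, Rgs14 and Rgs1.

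**Figure D1:**
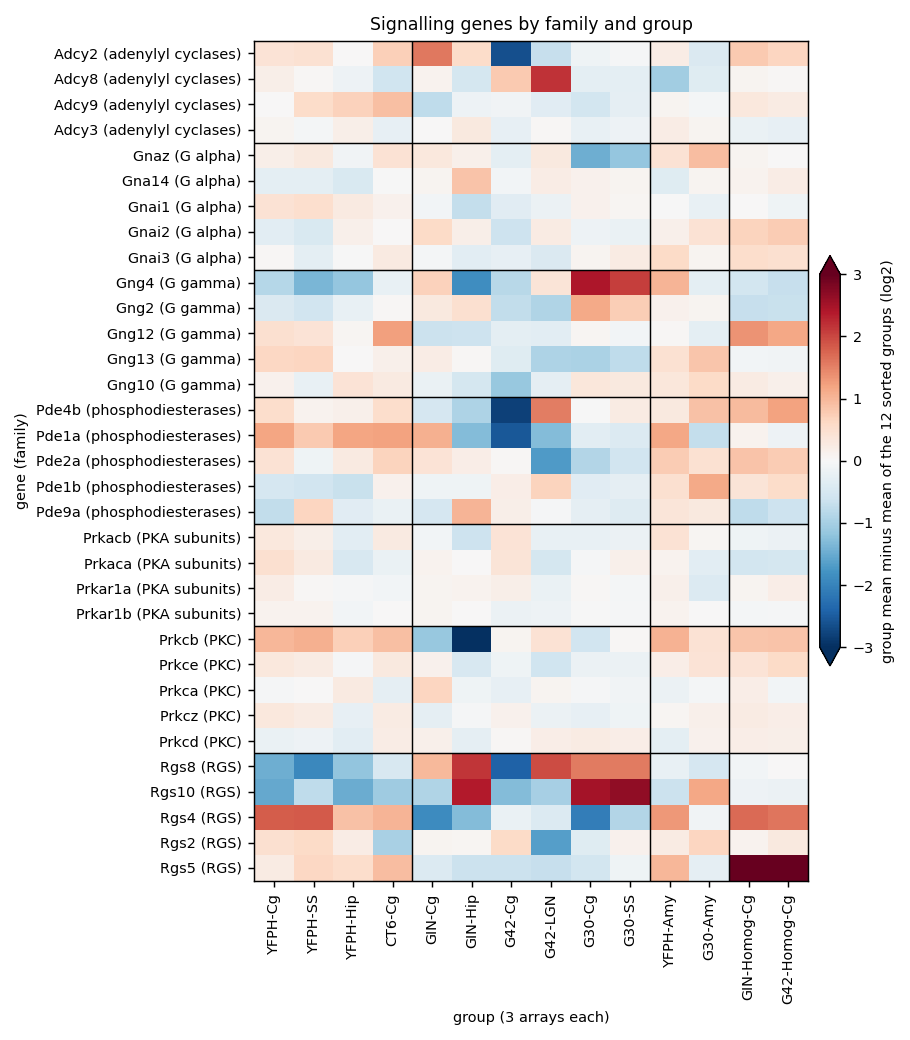
Heat map of the named members, a row per gene, over the 14 groups, a column per group; colour shows the mean log2(intensity + 16) of 3 arrays minus the gene's mean over the 12 sorted groups (red higher, blue lower). Prkcb is deepest blue in GIN-Hip, and Rgs10 is high in GIN-Hip, G30-Cg, G30-SS and, less so, G30-Amy.

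Promoters of 4 genes with large ranges are shown because their levels split these neurons along different lines: Prkcb and Rgs4 were higher in pyramidal neurons, and Rgs10 and Adcy2 differed among interneuron groups. They were chosen after their values were seen, from genes with a single entry. Each runs 5′ to 3′ on the gene's strand from 250 bases before the RefSeq start to 50 after it, from RefSeq on GRCm38.p6. Capitals mark the GC box GGGCGG or CCGCCC, the CRE core TGACG or CGTCA, which is part of the full CRE TGACGTCA that the cyclic AMP-responsive factor CREB binds, and the TATA box TATAAA or TTTATA, each searched on both strands. The Prkcb promoter lies at chr7:122288875-122289174 on the plus strand, that of Rgs4 at chr1:169747593-169747892, that of Rgs10 at chr7:128418123-128418422 and that of Adcy2 at chr13:68999492-68999791, these 3 on the minus strand.
Prkcb: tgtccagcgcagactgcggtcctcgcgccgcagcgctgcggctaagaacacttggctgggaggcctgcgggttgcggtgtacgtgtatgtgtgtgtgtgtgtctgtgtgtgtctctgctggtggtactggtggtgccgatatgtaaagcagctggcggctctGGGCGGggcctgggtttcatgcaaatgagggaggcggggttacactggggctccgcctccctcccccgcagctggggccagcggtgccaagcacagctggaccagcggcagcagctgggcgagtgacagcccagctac
Rgs4: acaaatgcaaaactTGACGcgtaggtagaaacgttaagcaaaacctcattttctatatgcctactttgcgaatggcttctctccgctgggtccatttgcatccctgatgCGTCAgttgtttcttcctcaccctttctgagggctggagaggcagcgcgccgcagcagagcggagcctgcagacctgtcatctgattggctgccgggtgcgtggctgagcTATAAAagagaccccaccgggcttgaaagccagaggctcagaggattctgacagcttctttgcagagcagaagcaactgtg
Rgs10: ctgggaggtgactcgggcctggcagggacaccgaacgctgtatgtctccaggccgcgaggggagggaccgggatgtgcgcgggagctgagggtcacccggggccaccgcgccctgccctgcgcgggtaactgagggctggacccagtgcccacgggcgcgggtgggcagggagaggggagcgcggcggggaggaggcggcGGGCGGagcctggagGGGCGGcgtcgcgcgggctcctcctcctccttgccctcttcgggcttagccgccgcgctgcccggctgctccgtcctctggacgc
Adcy2: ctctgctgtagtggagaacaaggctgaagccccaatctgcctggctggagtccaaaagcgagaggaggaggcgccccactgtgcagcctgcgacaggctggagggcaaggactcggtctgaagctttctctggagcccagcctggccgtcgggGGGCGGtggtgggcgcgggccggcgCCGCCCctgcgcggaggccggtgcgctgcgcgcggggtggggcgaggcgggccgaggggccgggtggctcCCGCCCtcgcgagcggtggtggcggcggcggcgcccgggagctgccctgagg
Counted from the start base, the Prkcb window holds a GC box at -88, the Rgs4 window the CRE core at -236 and -141 and a TATA box at -31, the Rgs10 window GC boxes at -50 and -35, and the Adcy2 window GC boxes at -97, -72 and -2. The window of Rgs10 is 76.0% G and C with 34 CpG and that of Adcy2 holds 32 CpG, while that of Prkcb is 65.3% with 19 and that of Rgs4 53.0% with 13; the median of all 32851 promoters is 52.7% with 7. RefSeq entries matched 59 of the 79 genes, some with several promoters. The full CRE stood in 2.8% of these promoters and in 1.8% of all promoters, the CRE core in 23.6% and 20.8%, the GC box in 46.2% and 35.7%, and the TATA box in 11.3% and 13.6%. A match of letters is a description of the window only.

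Among the G alpha genes, 11 of 12 tested differed among the sorted groups. Gnaz, whose product inhibits adenylyl cyclase and cleaves GTP slowly, had the widest range, 2.40, and stood lowest in the G30 cortical interneurons. Its arrays read 9.10, 9.39 and 9.45 in G30-Cg and 9.44, 9.35 and 10.08 in G30-SS, but 11.66, 11.78 and 11.69 in G30-Amy. All other sorted groups lay between 10.39 and 11.71 on every array, so neither G30 cortical group overlapped any of them. Gna14, an alpha subunit of the Gq family, read 8.80, 8.88 and 8.79 in GIN-Hip and no more than 8.34 on any other sorted array. Gnai2, an inhibitory alpha subunit, read 10.71, 11.05 and 11.27 in GIN-Cg against 9.79, 9.87 and 9.80 in G42-Cg, with no overlap. Gnai1, another inhibitory subunit, was between 12.53 and 12.85 in YFPH-Cg and YFPH-SS and between 11.31 and 11.61 in GIN-Hip, the lowest group. Gnai3 was uneven within a group: G30-SS read 9.31, 8.31 and 8.40, a span about as wide as that between the group means. The remaining called genes had narrower ranges: 1.00 for Gnao1, the abundant alpha subunit of neurons, 0.70 for Gna11 and 0.61 for Gnas, the stimulatory subunit.

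All 7 G gamma genes differed among the sorted groups. Gng4 read 10.85, 11.03 and 11.22 in G30-Cg and 10.56, 10.83 and 10.66 in G30-SS. It read 9.60, 9.79 and 9.53 in YFPH-Amy, 9.43, 9.17 and 9.32 in GIN-Cg, and 6.76, 6.71 and 6.78 in GIN-Hip. The G30 cortical groups lay above all others on every array, and GIN-Hip below all others, a range of 4.28. The GIN-Hip arrays are below the low-signal threshold, and floored the range was 3.26. Gng2, a widely expressed gamma subunit of brain, was also highest in G30-Cg, at 10.45, 10.49 and 10.57, and lowest in G42-LGN, at 8.48, 8.37 and 8.58. Gng12 went the other way: its highest sorted group was CT6-Cg, with 9.55, 9.43 and 9.56, and GIN-Cg read 7.64, 7.67 and 7.65. The unsorted cells read 9.32 to 9.66 for Gng12, as high as CT6-Cg. Gng13, known as the partner of gustducin in taste cells, stood at 10.62 or more on every YFPH-Cg, YFPH-SS and G30-Amy array and between 8.61 and 9.66 in G42-LGN, G30-Cg and G30-SS. Gng10 was lowest in G42-Cg, at 9.18, 8.71 and 9.31. Gng11 and Gng3 had ranges of 0.77 and 0.50.

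The RGS genes, whose products end the signal of the alpha subunits, held 4 genes with ranges over 4-fold. Rgs8 read 12.05, 11.75 and 11.94 in GIN-Hip and 11.87, 11.60 and 11.66 in G42-LGN. In G42-Cg, from the same line as G42-LGN, it read 7.31, 7.26 and 7.47, below the low-signal threshold, a range of 4.57 that was 4.14 floored. The other interneuron groups were high as well, GIN-Cg at 10.37 to 10.94 and the G30 cortical groups at 11.12 to 11.65, and the pyramidal groups lay between 7.51 and 9.88, so G42-Cg was the only interneuron group at the level of the lowest pyramidal groups. Rgs10, a small RGS protein made of little more than the RGS domain, read 11.57, 11.53 and 11.47 in GIN-Hip, 11.34, 11.85 and 11.76 in G30-Cg, and 11.51, 11.84 and 12.04 in G30-SS. G30-Amy followed at 10.31, 10.41 and 10.18. On the arrays of the other sorted groups it stayed at or below 9.21, and YFPH-Cg read 7.57, 7.70 and 7.57, so Rgs10 was high in all 3 G30 groups but in only 1 of the 2 GIN groups. Rgs4, which acts on Gi and Gq alpha subunits and is abundant in the cortex, read 12.67, 12.53 and 12.69 in YFPH-SS and 8.72, 8.81 and 8.61 in G30-Cg, a range of 3.92 or 15.1-fold. Every array of the 4 pyramidal groups stood at 11.13 or more for Rgs4, and every interneuron array at 10.74 or less. Rgs2, which prefers Gq alpha subunits, was lowest in G42-LGN, at 8.69, 8.81 and 8.35, and next in CT6-Cg, at 8.96, 9.52 and 9.39. Rgs5, known as a gene of pericytes, read 8.74, 7.37 and 9.58 in CT6-Cg, the widest scatter of the members within a group named here, and 10.91 to 11.67 in the unsorted cells. Rgs17 and Rgs19, which act on Gz and Gi subunits, had ranges of 1.69 and 1.52, and Rgs16 had 1.67.

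**Figure D2:**
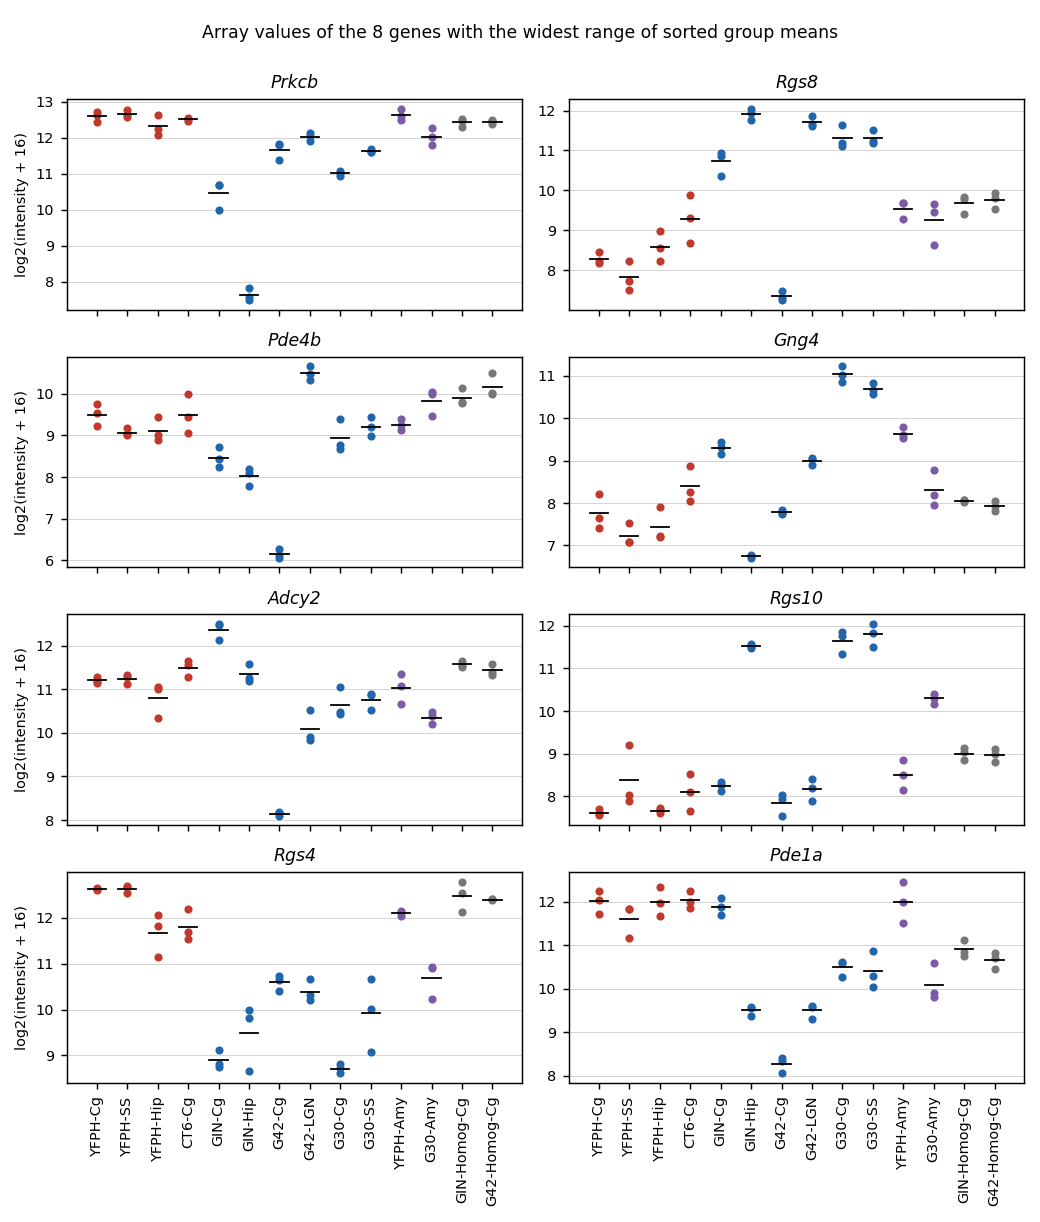
Log2(intensity + 16) on each array, a point per array, for the 8 members with the widest ranges (Prkcb, Rgs8, Pde4b, Gng4, Adcy2, Rgs10, Rgs4 and Pde1a), by group. The 3 arrays of a group lie close together next to the distance between groups: Prkcb runs from 7.49 to 7.83 in GIN-Hip and from 12.57 to 12.78 in YFPH-SS.

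Among the adenylyl cyclases 4 of 7 differed. Adcy2, which is stimulated by beta-gamma subunits together with Gs, read 12.48, 12.49 and 12.13 in GIN-Cg and 8.17, 8.18 and 8.10 in G42-Cg, a range of 4.22 or 18.6-fold. All other sorted groups lay between 9.84 and 11.65, so G42-Cg stood far below every other group. Adcy8, a cyclase stimulated by calcium and calmodulin, read 10.53, 9.99 and 9.85 in G42-LGN, 8.72, 8.85 and 8.66 in G42-Cg, and 6.94, 7.07 and 6.75 in YFPH-Amy. The thalamic interneurons were above every other array, and the range was 3.20, or 2.35 floored, since YFPH-Amy lies below the low-signal threshold. Adcy9, a widely expressed cyclase that forskolin stimulates poorly, ran from 9.52 to 9.79 in GIN-Cg to 11.18, 11.42 and 11.33 in CT6-Cg. Adcy3, the cyclase of olfactory cilia and of primary cilia of neurons, differed by less.

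Of 15 phosphodiesterase genes tested 12 differed. Pde4b, a cyclic AMP-specific enzyme blocked by rolipram, read 10.48, 10.66 and 10.33 in G42-LGN and 6.13, 6.27 and 6.06 in G42-Cg, a range of 4.34. Of the other sorted arrays only GIN-Hip array 3, at 7.773, was below the low-signal threshold of 7.774, and floored the range was 2.72. Pde1a, a calcium- and calmodulin-stimulated enzyme, read 12.25, 11.99 and 11.84 in CT6-Cg and 12.07, 11.87 and 11.68 in GIN-Cg, against 8.06, 8.34 and 8.40 in G42-Cg. The somatostatin-positive interneurons of the cingulate cortex thus matched the pyramidal groups, which overlapped with them. Its relative Pde1b was highest in G30-Amy, at 10.86 or more on each array, and 8.99 to 9.57 in YFPH-Cg, YFPH-SS and YFPH-Hip. Pde2a, an enzyme that cyclic GMP stimulates, was lowest in G42-LGN, at 8.20 or less on each array, and no other sorted array was below 8.82. Pde9a, which breaks down cyclic GMP, read 10.02, 9.98 and 9.93 in GIN-Hip and 9.16, 9.97 and 9.69 in YFPH-SS, and 8.41, 8.11 and 8.13 in YFPH-Cg. The Pde6 genes of photoreceptors, Pde7b and Pde10a, an enzyme of striatal neurons, had ranges of 0.89 or less.

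None of the 4 PKA subunits tested spanned over 4-fold. The catalytic subunit Prkacb had the widest range, 1.04, and read 13.11, 12.98 and 13.19 in YFPH-Amy, 13.26, 12.94 and 13.05 in G42-Cg, and 11.83, 12.09 and 12.23 in GIN-Hip. The other catalytic subunit, Prkaca, read 11.12, 10.30 and 10.35 in YFPH-Cg, where array 1 stood apart. The regulatory subunits Prkar1a and Prkar1b overlapped between most groups. PKC differed in another way, with 1 isoform of wide range. Prkcb, a conventional isoform that needs calcium and diacylglycerol, read 12.57, 12.78 and 12.62 in YFPH-SS, 9.99, 10.68 and 10.69 in GIN-Cg, and 7.49, 7.83 and 7.57 in GIN-Hip. That range of 5.03, or 4.87 floored, was the widest of the 67 genes, and GIN-Hip was more than 2 log2 steps below every other array. Prkca, the other conventional isoform, was highest in GIN-Cg, at 9.04, 9.50 and 9.47. The calcium-independent isoforms Prkcd and Prkce and the atypical isoform Prkcz overlapped more, and the widest of these ranges was that of Prkce, from 10.67 to 10.83 in G42-LGN to 11.72 to 11.79 in G30-Amy.

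Type-specific genes are those whose level in 1 sorted type exceeded that of all 11 others by test, and 6 of the 67 were, against 1.56% of all genes tested. Adcy8 was 1.38 above the next group in G42-LGN (limma, adjusted p = 2.26e-05), and Gnat2, the transducin of cone photoreceptors, 0.43 above the next there (adjusted p = 0.001277). Gng12 led in CT6-Cg by 0.75 (adjusted p = 0.001704). In GIN-Cg, Adcy2 led by 0.87 (adjusted p = 0.01895) and Rgs17 by 0.72 (adjusted p = 0.006842), and Gna14 led in GIN-Hip by 0.63 (adjusted p = 0.01596). The calls for Gna14 and Gnat2 ended with scan year as a block. That for Gna14 also ended without array 1 or 2 of GIN-Hip or of G42-LGN, and that for Rgs17 without array 3 of GIN-Cg or array 2 or 3 of G30-SS. That for Adcy2 ended with the Gapdh 3′ over 5′ signal, a measure of RNA quality and amplification, as a covariate and without array 1 or 2 of GIN-Cg or of CT6-Cg.

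The mean of the 4 pyramidal groups was set against the mean of the 6 interneuron groups to ask which signalling genes separate the classes. Of the 67 genes 39 were called, 22 higher and 17 lower in pyramidal neurons, or 58.2% where 49.1% of all genes were called, 22% higher and 27.1% lower. Rgs4 was 2.51 ± 0.13 higher (5.71-fold, adjusted p = 3.638e-18), Pde1a 1.90 ± 0.10 (adjusted p = 1.583e-17) and Prkcb 1.78 ± 0.07 (adjusted p = 1.002e-21). These 3 lead the pyramidal side, with an RGS protein, a calcium-dependent phosphodiesterase and a calcium-dependent kinase among them. Rgs8 differed by -2.22 ± 0.11 (adjusted p = 1.844e-18), Rgs10 by -1.93 ± 0.10 (adjusted p = 1.37e-17) and Gng4 by -1.38 ± 0.09 (adjusted p = 1.887e-15). The size depends on the probe set: the other probe set of Gng4 differed by -0.29, that of Gng12 by 0.34 and that of Prkcb by 2.65, each called in the same direction. The RGS family was split evenly, 5 higher and 5 lower of 15, and G gamma had 4 higher and 2 lower of 7. Smaller differences were 0.91 for Adcy9, 0.86 for Gng12, 0.83 for Gng13, 0.75 for Pde4b (0.48 floored), 0.73 for Pde2a and 0.72 for Rgs19, and -0.84 for Rgs16, -0.48 for Gna14 and -0.47 for Gng2.

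A class mean hides differences among types: Pde1a in GIN-Cg and Rgs8 in G42-Cg, given above, go against their class. Gng4 does so in GIN-Hip, whose mean of 6.75 was below that of every pyramidal group. The Rgs10 means of GIN-Cg, G42-Cg and G42-LGN were 8.24, 7.84 and 8.16, within the 7.61 to 8.38 of the pyramidal groups. The means of all 4 pyramidal groups lay on one side of those of all 6 interneuron groups for 8 called members, Rgs4, Prkcb, Rgs5, Adcy9, Gng12, Rgs19, Gnai1 and Rgs3, or 11.9% against 9.07% of all genes. Rgs5 was 1.10 ± 0.16 higher in pyramidal neurons (adjusted p = 4.125e-07) and 0.49 higher floored, but its other probe set differed by 0.14 and was not called; of 7 endothelial and mural markers 1 was higher and 2 were lower, and their part in the result was not tested. With each cell type counted as 1 replicate, 5 members stayed called, Rgs4, Rgs5, Adcy9, Gng12 and Rgs19. The calls for Pde1a, Prkcb, Rgs8, Rgs10 and Gng4 thus ended. The p-values given above measure the scatter of arrays within groups, not that among cell types. Scan year and class overlap in part: 28 were called with scan year as a block, 25 of them among the 39. The calls for Rgs3 and Pde1b were among those that ended. Within the middle year 35 of 39 kept their direction, with 36 and 31 of 39 on the 2 scan days that held both classes. The genes were called from these same arrays, so counts of direction, here and below, are not a separate test.

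**Figure D3:**
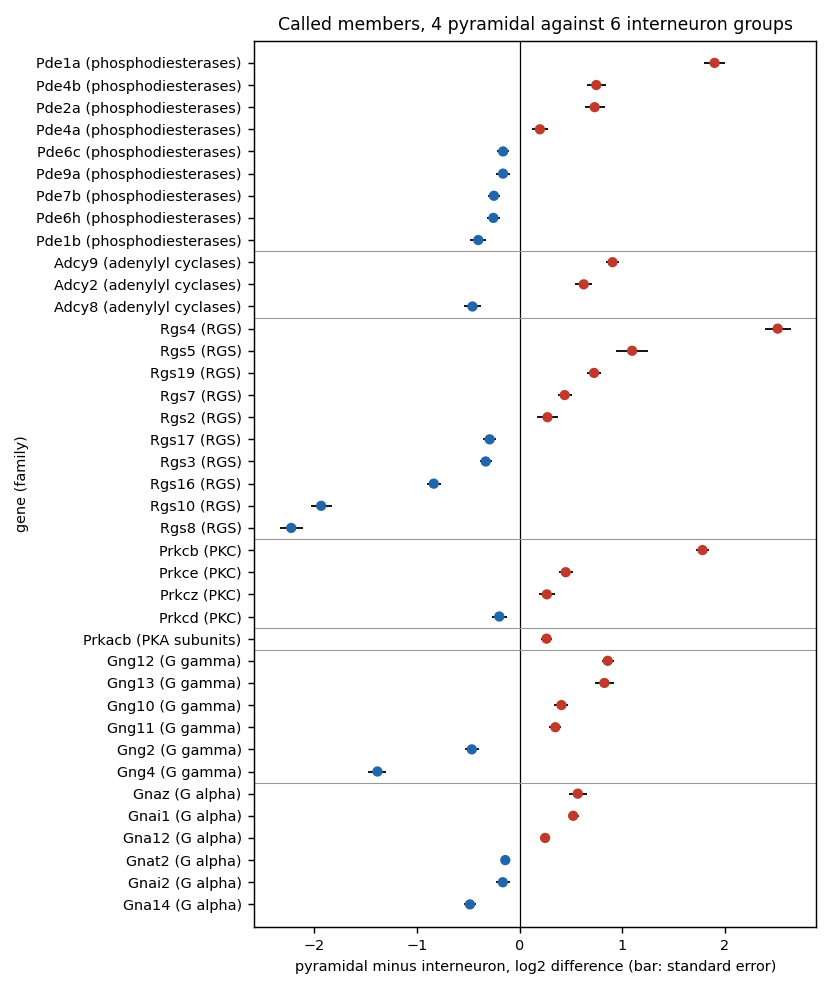
Pyramidal (4 groups) minus interneuron (6 groups) difference in log2(intensity + 16) for the 39 called members, a point per gene with its SE as a bar, grouped by family (red higher, blue lower in pyramidal neurons). Rgs4, at 2.51, and Rgs8, at -2.22, lie at the ends.

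Other genes of these pathways, from short lists written with earlier results of these data known, were described in the same fit. Of all genes 22% were higher and 27.1% lower in pyramidal neurons, and the counts below were not tested against these shares. In the list of phosphatase inhibitors and related proteins that PKA regulates, 4 of 5 tested were higher in pyramidal neurons and none lower. Arpp21 was 2.98 and Arpp19 2.06 higher, and the list median was 0.34 where that of all genes was -0.02. Itpka, the kinase of inositol trisphosphate, was 3.85 higher, in a list of 7 phospholipase C and inositol trisphosphate genes of which 2 were higher and 2 lower. Of 5 receptor kinases and arrestins 3 were lower and none higher, Arrb1, a beta-arrestin, by -0.51. Of 5 G beta subunits 2 were higher and 1 lower, including Gnb5, the partner of an RGS subfamily, at 0.55. Gucy1b1, the beta subunit of soluble guanylyl cyclase, was 0.82 higher, and the alpha subunit Gucy1a1 differed by -0.32. The PKA inhibitors and anchors had 3 higher and 2 lower of 8, the cyclic nucleotide effectors 2 and 3 of 6, and the diacylglycerol kinases 1 and 1 of 6.

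Within the cingulate cortex, GIN-Cg and G42-Cg compare somatostatin-positive with parvalbumin-positive interneurons. The comparisons that follow share arrays, since GIN-Cg, G42-Cg and YFPH-Cg each enter several, so their values are not independent of each other. Scan day could be separated from group only for YFPH-SS against YFPH-Cg, G30-SS against G30-Cg and the sorted against the unsorted cells. In the others, including the interaction, the compared groups shared no scan day, so scan day and group cannot be told apart. Of the 67 genes 29 were called, 21 higher and 8 lower in GIN-Cg, where 29.4% of all genes were called, 17.6% higher and 11.8% lower; centring each array on its median, which shifts the median gene by -0.10, gave 17 higher and 11 lower. Adcy2 was 4.22 ± 0.18 higher (adjusted p = 6.158e-19), Pde1a 3.61 ± 0.22 (adjusted p = 1.219e-14) and Rgs8 3.38 ± 0.24 (adjusted p = 5.415e-13). The somatostatin-positive cells thus had more mRNA of a cyclase and of a calcium-dependent phosphodiesterase. Pde4b was 2.31 ± 0.20 higher (adjusted p = 8.562e-11), but G42-Cg lies below the low-signal threshold for it, and floored the difference was 0.69. In bulk samples of picked cells, fewer cells of a type and less RNA per cell cannot be told apart. Rgs17 was 1.69 higher, Gng4 1.52, Gnai2 1.19 and Gng2 1.02, and of 7 G gamma genes 6 were higher and 1, Gng12, lower. On the parvalbumin-positive side, Rgs4 differed by -1.70 ± 0.28 (adjusted p = 1.87e-05) and Prkcb by -1.22 ± 0.15 (adjusted p = 1.029e-07), and Pde9a and Adcy8 by -0.68 each. The log2 Gapdh 3′ over 5′ signal was 3.21 ± 0.37 in GIN-Cg and 1.98 ± 0.20 in G42-Cg; with it as a covariate 18 genes were called, all among the 29, and the calls for Adcy9, Pde4a and Gng12 were among those that ended. The call for Gng12 also ended floored.

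G30-Cg was set against the mean of GIN-Cg and G42-Cg to describe the third interneuron line of the same cortex. Of the 67 genes 20 were called, 11 higher and 9 lower, where 17.2% of all genes were called, 8.25% higher and 8.92% lower. Rgs10 was 3.61 ± 0.20 higher (adjusted p = 1.649e-16), Gng4 2.49 ± 0.17 (adjusted p = 7.327e-14) and Rgs8 2.28 ± 0.21 (adjusted p = 2.142e-10). Gamma subunits again took part, with Gng2 1.36 and Gng10 1.01 higher, and 4 of 7 higher in all and 1 lower, Gng13 at -0.88. Pde4b was 1.64 higher, or 0.83 floored, Rgs16 1.11 and Gnao1 0.74. For several genes the mean of the 2 other groups stands between unlike values: the means of Pde4b were 8.94 in G30-Cg, 8.46 in GIN-Cg and 6.15 in G42-Cg. Gnaz differed by -1.48 ± 0.16 (adjusted p = 1.211e-08), Pde2a by -1.09 and Rgs4 by -1.03, so a Gi-type alpha subunit and a cyclic GMP-stimulated phosphodiesterase were lower. The Rgs4 arrays of G30-Cg overlapped those of GIN-Cg, which read 9.11, 8.82 and 8.75, and the mean of G42-Cg was 10.59. For Rgs8 the means were 10.73 in GIN-Cg and 7.35 in G42-Cg, against 11.12, 11.65 and 11.18 on the G30-Cg arrays.

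CT6-Cg and YFPH-Cg compare layer 6 neurons that project to the thalamus with layer 5 pyramidal neurons of the same area. Of the 67 genes 15 were called, 10 higher and 5 lower in layer 6, where 12.5% of all genes were called, 5.97% higher and 6.54% lower. Rgs2 differed by -1.45 ± 0.22 (adjusted p = 1.421e-05), Rgs8 by 1.00 ± 0.24 (adjusted p = 0.004217), Adcy9 by 0.90 ± 0.14 (adjusted p = 3.021e-05) and Gng12 by 0.75 ± 0.13 (adjusted p = 0.0001038). The Gq-directed Rgs2 was the largest of these, and its arrays did not overlap between the groups. Gna11, a Gq family subunit, was 0.64 higher, Pde1b 0.62 and Pde9a 0.56 higher, and Prkaca differed by -0.69. Adcy8 differed by -0.76, or by -0.36 floored, where its call ended. All CT6-Cg arrays but only 1 YFPH-Cg array were scanned in the middle year; a block for scan year left 5 called (Rgs8, Adcy9, Gng12, Gna11 and Rgs2), and all 15 kept their direction in that year alone. The Gapdh signal was 2.86 ± 0.34 in CT6-Cg and 2.12 ± 0.05 in YFPH-Cg, and with it as a covariate 7 were called; without YFPH-Cg array 1, 9 were.

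The cortical areas were compared in 2 lines. Between YFPH-SS and YFPH-Cg, layer 5 neurons of somatosensory and cingulate cortex, 2 genes were called, both higher, where 1.59% of all genes were (0.871% higher and 0.721% lower): Pde9a was 1.39 ± 0.14 higher in YFPH-SS (adjusted p = 2.747e-08) and Adcy9 0.55 ± 0.14 (adjusted p = 0.04322). Both kept their direction within each of the 2 scan years, and the call for Adcy9 ended with the mean of its probe sets or with scan day as a block, and without YFPH-Cg array 2 or 3 or any of the 3 YFPH-SS arrays, where 1 or 2 genes were called. Between G30-SS and G30-Cg none was called by limma, 7 had an unadjusted p under 0.05, and 0.183% of all genes were called, 0.161% higher and 0.0215% lower; the median absolute difference was 0.08 over the 67 and 0.09 over all genes. Other settings called up to 3, scan day as a fixed block called 0, and leaving out G30-SS array 1 or 2 called 1.

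Within the G42 line, by contrast, the thalamic and cortical GFP cells differed in 23 of 67 genes, 16 higher and 7 lower in G42-LGN, where 26.2% of all genes were called, 13.9% higher and 12.2% lower. Rgs8 was 4.37 ± 0.24 higher (adjusted p = 2.654e-16) and Pde4b 4.34 ± 0.20 (adjusted p = 2.628e-18). G42-Cg lies below the low-signal threshold for both, and floored the differences were 3.94 and 2.72. Adcy2 was 1.94, Adcy8 1.38, Pde1a 1.24, Gng4 1.22 and Rgs16 1.13 higher. Rgs2 differed by -2.23 ± 0.22 (adjusted p = 8.293e-10), Pde2a by -1.74 ± 0.21 (adjusted p = 7.029e-08), Prkaca by -0.92 and Prkacb by -0.64, so both PKA catalytic subunits were lower in the thalamus. The Gapdh signal was 2.89 ± 0.12 in G42-LGN and 1.98 ± 0.20 in G42-Cg, and with it as a covariate 19 were called, 18 of them among the 23, and the calls for Pde4a and Gng13 were among those that ended.

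The hippocampus was compared with the cingulate cortex in the GIN and YFPH lines. Between GIN-Hip and GIN-Cg 18 of 67 were called, 5 higher and 13 lower, where 18.3% of all genes were, 9.79% higher and 8.53% lower. Rgs10 was 3.28 ± 0.23 higher in the hippocampal cells (adjusted p = 7.414e-13), Pde9a 1.52 ± 0.14 (adjusted p = 9.129e-10), Rgs8 1.19 and Gna14 0.78. Prkcb differed by -2.83 ± 0.15 (adjusted p = 9.631e-16), Gng4 by -2.56 ± 0.19 (adjusted p = 6.139e-12), Pde1a by -2.37 ± 0.22 (adjusted p = 9.954e-10) and Adcy2 by -1.02. For Gng4 the hippocampal cells lie below the low-signal threshold, and floored the difference was -1.53. Hippocampal somatostatin-positive cells thus had less mRNA of a PKC, a gamma subunit and a calcium-dependent phosphodiesterase, and more of a cyclic GMP phosphodiesterase. The Gapdh signal was 2.43 ± 0.38 in GIN-Hip and 3.21 ± 0.37 in GIN-Cg, and with it as a covariate 14 were called, all among the 18, with the calls for Adcy9 and Adcy8 among those that ended. Between YFPH-Hip and YFPH-Cg 8 were called, 2 higher and 6 lower, where 10% of all genes were, 4.45% higher and 5.56% lower. Adcy9 was 0.69 and Gnai2 0.46 higher, and Prkaca differed by -0.96, Rgs4 by -0.95 and Prkacb by -0.61. All 8 kept their direction within the first scan year; with the Gapdh signal as a covariate 4 were called, and without YFPH-Cg array 1, 3 were. Without YFPH-Cg array 3 or YFPH-Hip array 2 or 3, 5 were.

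The difference between the 2 lines was tested as an interaction, and 17 of 67 were called, 10 above 0 and 7 below, where 20.9% of all genes were, 9.83% above and 11.1% below. Prkcb moved by -0.29 (adjusted p = 0.2488) in the pyramidal cells and by -2.83 in the GIN cells, an interaction of 2.54 ± 0.21 (adjusted p = 7.298e-11). Rgs10 moved by 0.05 and 3.28, an interaction of -3.23 ± 0.32 (adjusted p = 3.631e-09). Pde1a, Gng4 and Pde9a likewise had interactions of 2.36, 2.25 (1.43 floored) and -1.11, each with a difference in the GIN line and no call in the YFPH line. Rgs4 was lower in hippocampal pyramidal cells and had a difference of 0.60 in the GIN cells (adjusted p = 0.1405), an interaction of -1.55 ± 0.40 (adjusted p = 0.004893). Line and class are the same division here and cannot be told apart. Region also goes with age in the YFPH line, as given above, while GIN-Hip and GIN-Cg mice were 63 to 74 and 63 to 78 days old. All YFPH-Hip arrays were scanned in the first year and all GIN-Hip and GIN-Cg arrays in the middle year. An interaction of region and class thus cannot be told apart from one that involves age. With the Gapdh signal as a covariate 10 of the interactions were called.

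**Figure D4:**
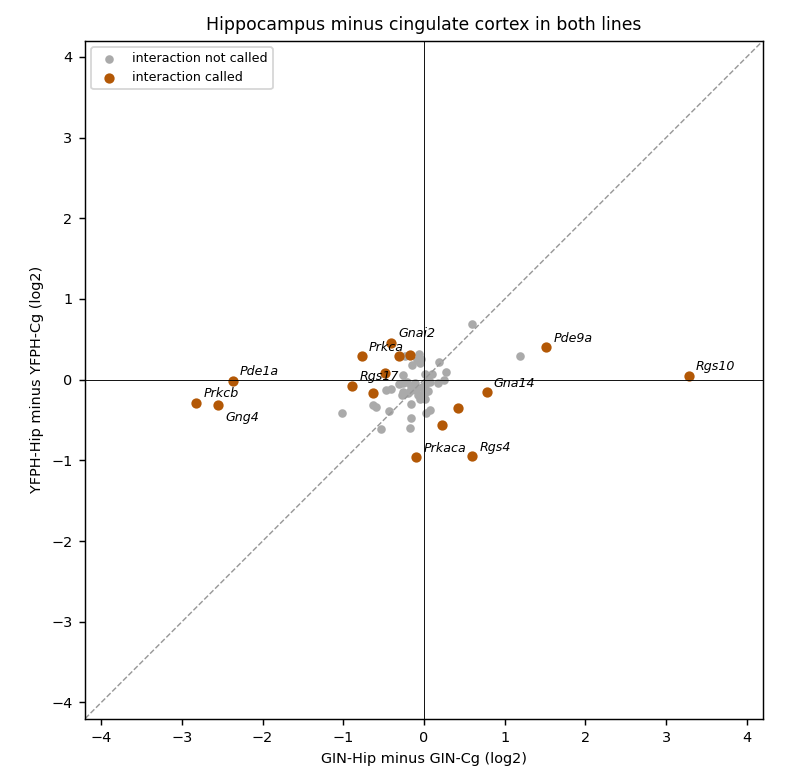
Hippocampus minus cingulate difference in log2(intensity + 16) in the GIN line (horizontal) against that in the YFPH line (vertical), a point per tested member, with called interactions in orange and the dashed line marking equal differences. Rgs10, at 3.28 in GIN and 0.05 in YFPH, and Prkcb, at -2.83 and -0.29, lie far along the GIN axis.

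YFPH-Amy and G30-Amy, both of unlabelled class, differed in 26 of 67 genes, 16 higher and 10 lower in YFPH-Amy, where 17.4% of all genes were called, 9.21% higher and 8.15% lower. Pde1a was 1.89 ± 0.22 higher (adjusted p = 1.616e-07), Rgs4 1.41 ± 0.28 (adjusted p = 0.0005322) and Gng4 1.33 ± 0.19 (adjusted p = 6.392e-06), and Rgs10 differed by -1.80 ± 0.23 (adjusted p = 4.828e-07). The mean of Rgs10 was 10.30 in G30-Amy, below the 11.65 of G30-Cg, the 11.80 of G30-SS and the 11.52 of GIN-Hip, which is of another line. Gng4, which was high in the G30 cortical groups, was lower in G30-Amy than in YFPH-Amy. The YFPH-Amy mice were 91 days or older and the G30-Amy mice 60 to 79 days, so age, line and group cannot be told apart. No scan year held both groups, so scan year and group can be told apart only through the other groups; with it as a block 2 were called, Gng4 and Prkcb. The Gapdh signal was 2.29 ± 0.27 in YFPH-Amy and 3.25 ± 0.43 in G30-Amy, and with it as a covariate 8 were called.

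Sorted cells were finally set against unsorted cells of the same area and line. In GIN-Cg 25 of 67 were called, 9 higher and 16 lower than in GIN-Homog-Cg, where 29.4% of all genes were, 15.3% higher and 14% lower; in G42-Cg 33 were, 6 higher and 27 lower than in G42-Homog-Cg, where 32.3% of all genes were, 15.5% higher and 16.8% lower. For G42-Cg, centring each array on its median shifts the median gene by 0.09 and gave 6 higher and 22 lower. Rgs5 was the largest in both comparisons, by -3.99 ± 0.34 (limma, adjusted p = 2.527e-11) and -4.30 ± 0.34 (adjusted p = 2.66e-12). All its GIN-Cg and G42-Cg arrays lie below the low-signal threshold, and floored the differences were -3.44 and -3.52. In GIN-Cg, Rgs4 at -3.59 was then the largest. The G alpha gene Gna13 differed by -1.71 and -1.82, Gng12 by -1.98 and -1.45, and Rgs4 by -3.59 and -1.80. Markers moved too: in the 2 comparisons 7 of 7 microglial genes, 2 of 2 oligodendrocyte genes, 6 and 7 of 8 astrocyte genes, 4 of 7 endothelial and mural genes and 5 of 5 pyramidal genes were lower in the sorted cells. The summed microglial list ran from 13.15 to 13.42 on the unsorted and from 11.59 to 12.11 on the sorted arrays of these lines, and the endothelial and mural list from 12.04 to 12.27 and from 11.58 to 11.77; their part in the result was not tested. Higher in the sorted somatostatin-positive cells were Rgs17 by 1.42, Gng4 by 1.25, Rgs8 by 1.05 and Pde1a by 0.97, and higher in the parvalbumin-positive cells Prkaca by 0.93, Pde9a by 0.80, Adcy8 by 0.74 and Prkacb by 0.59. In G42-Cg, Pde4b differed by -4.01 ± 0.20, or by -2.39 floored, and Adcy2 by -3.29 ± 0.18, the genes that also set G42-Cg below GIN-Cg. On the scan days that held both, with 1 sorted and 1 unsorted array each, all 25 and all 33 kept their direction. The Gapdh signal was 1.998 ± 0.21 in GIN-Homog-Cg and 1.97 ± 0.44 in G42-Homog-Cg, against the 3.21 and 1.98 of the sorted cells, and with it as a covariate 19 GIN genes were called, 15 of them among the 25; the calls for Rgs8, Prkaca, Pde6c, Gnai3 and Prkcz were among those that ended.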

How the data were processed

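Intensity values on a linear scale were taken as deposited by the authors, for 22690 probe sets on 42 arrays; they run from 1 to 22818.24. Per the labels' protocols, cells were dissociated, picked under fluorescence and their RNA amplified before hybridisation; the summarisation and scaling behind the intensity values are not given in the sources used here. Each value became log2 of the intensity plus 16, without further scaling. Of the probe sets, 64 controls, 691 with several gene symbols and 1555 absent from the annotation of 2016 were left out, and 20380 with 1 symbol gave 12393 genes. Scan days and amplification remarks came from the deposited array records.

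A mean per group was fitted over 42 arrays with limma 3.58.1 in R 4.3.3 (trend and robust variances, 28 residual degrees of freedom); tables were made with Python 3.11.15. P-values were adjusted by Benjamini-Hochberg over 9295 genes within each comparison and called below 0.05. For type-specific genes, the largest one-sided p-value against the other sorted groups was taken for each gene and sorted group. These were adjusted over all genes and sorted groups together. Named genes are, per family, up to 5 members called by the F test with the widest range, and, per comparison, up to 10 called members in each direction with the largest difference; others are named as stated. The members and lists were chosen with earlier results of these data known. The steps were tested on simulated data. Same-numbered replicates did not deviate together (every correlation above 0.1 in 0 of 10 comparisons). That check covers numbers only: some arrays of G30-Cg and G30-SS, and of YFPH-Cg and YFPH-SS, share an age and a scan day under the same or other numbers, and whether they share an animal is not given in the labels.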

Additional observations from a re-analysis of the deposited data

Results flagged for a closer look

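For 17 genes the difference between hippocampus and cingulate cortex was itself different in the YFPH pyramidal cells and in the GIN somatostatin-positive cells, by the interaction test of limma. That is 25.4% of the 67 tested members, where 20.9% of all genes were called. Each value is the YFPH difference minus the GIN difference on the log2 scale. Line and class are the same division here, and region goes with age in the YFPH cells, so these cannot be told apart. All YFPH-Hip arrays were scanned in the first year and all GIN-Hip and GIN-Cg arrays in the middle year. The kinase gene Prkcb had 2.54, the phosphodiesterase gene Pde1a 2.36 and the gamma subunit gene Gng4 2.25, or 1.43 with values below the low-signal threshold raised to it. Prkca followed with 1.06, Gnai2 with 0.87, Rgs17 with 0.82, Gng10 with 0.60, Gnao1 with 0.56, Gnasas1 with 0.48 and Gnai1 with 0.46. Negative values were -3.23 for Rgs10, -1.55 for Rgs4, -1.11 for Pde9a, -0.93 for Gna14, -0.86 for Prkaca, -0.79 for Prkcz and -0.76 for Pde4a. The calls for Gnai1, Prkaca, Gng10 and Gnao1 ended in 18, 16, 12 and 11 of 26 alternative runs. Those for Pde4a, Gnasas1, Prkcz, Gnai2 and Rgs4 ended in 7 or fewer. The signs in the 2 lines were opposite for Prkca, Gnai2, Gng10, Gnao1, Gnasas1, Rgs4, Gna14, Prkcz and Pde4a, and of these Gnai2 was called in both lines.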

How the results depend on the processing

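Of 192 named differences and specificities 86 lost the call under at least 1 alternative run, and 1 of these also reversed: Rgs3 between the amygdala groups was 0.023 with scan year as a fixed block (adjusted p = 0.9994). With the Gapdh signal as a covariate the called members were 18 for GIN-Cg minus G42-Cg, 7 for CT6-Cg minus YFPH-Cg, 4 for YFPH-Hip minus YFPH-Cg, 8 for the amygdala and 10 for the interaction. With scan year as a fixed block they were 5 for CT6-Cg minus YFPH-Cg and 2 for the amygdala. A filter at the 50th percentile left 17 for the amygdala, 2 for G30-SS minus G30-Cg and 2 type-specific; the mean of all probe sets of a gene left 16, 1 and, for YFPH-SS minus YFPH-Cg, 1. G30-SS minus G30-Cg gave 1 with quantile normalization, 3 with a floor at the 25th percentile and 3 with scan day as a random block. YFPH-SS minus YFPH-Cg gave 1 with scan day as a fixed block, without the abnormally amplified arrays and with the compared arrays only, which gave 4 for YFPH-Hip minus YFPH-Cg. Each cell type as 1 replicate gave 5 for the class comparison, and arrays of the middle year only, chosen after seeing the data, 30. The causes were not tested.

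Leaving out 1 array at a time gave 35 to 40 for the classes, 17 to 20 for G30-Cg, 21 to 29 for GIN-Cg minus G42-Cg, 9 to 15 for CT6-Cg, 3 to 7 for YFPH-Hip, 16 to 22 for GIN-Hip, 1 to 2 for YFPH-SS, 0 to 1 for G30-SS, 20 to 24 for G42-LGN, 18 to 23 for the amygdala, 19 to 23 and 28 to 30 for the unsorted comparisons of GIN and G42, 12 to 15 for the interaction, 53 to 58 for the F test and 5 to 6 for type-specific members. With the replicate number as a block, 39 members were called for the classes, 9 for YFPH-Hip, 15 for the interaction and 32 for G42 against unsorted cells; same-numbered replicates share only a number, and a shared animal under other numbers was not tested.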
